A study of Mus musculus with 12 samples.

Results

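The mitochondrial genome carries 37 genes in the mouse: 13 mRNAs for subunits of the respiratory chain, 2 rRNAs and 22 tRNAs. They were taken as all genes that the deposited table places on chromosome MT, which gave 37 of its 30239 genes, and all 37 passed the expression filter of an FPKM of at least 1 in at least 4 libraries. FPKM is a read level per gene length and library size. The libraries hold poly(A) RNA of the tibialis anterior, a shin muscle made mostly of fast fibres, from naive mice of 6 months, with 4 libraries per genotype. In DMD-Null mice dystrophin is disrupted in a way the labels do not describe. In mdx mice, a long-used model of Duchenne muscular dystrophy, the same gene has a nonsense mutation, and in WT mice it is intact. The sources used here give no strain or sex, and the labels number the replicates without saying that each came from a separate animal, so the p-values reflect only how these samples vary, which may be technical.

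Mitochondrial DNA is read from both strands as long transcripts that span several genes. In most places a tRNA sits between the neighbouring mRNAs or rRNAs, and cutting out the tRNAs releases the RNAs on either side. Most of the mRNAs, and the rRNAs, receive short poly(A) tails inside the organelle, which is why they appear in poly(A) libraries. Mature tRNAs carry no such tail. Muscle fibres hold many mitochondria, and the mRNAs made there are translated into subunits of complexes I, III and IV and of the ATP synthase, next to many more subunits encoded in the nucleus.

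Some of the tRNA genes discussed below are shown first, because the tRNA genes are short and hold more A and T than G and C. The selection includes mt-Tp, which passed in neither comparison with WT, and leaves out several tRNAs that passed. The genes shown are printed on their own strand from the 5′ to the 3′ end, as in the GENCODE transcripts of GRCm38, with G and C in capitals. The start, end and strand of all 37 genes in the deposited table were the same as in that annotation.
mt-Tt (tRNA for threonine, chrM:15289-15355, plus strand): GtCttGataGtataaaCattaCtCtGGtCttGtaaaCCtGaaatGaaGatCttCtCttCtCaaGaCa
mt-Ti (isoleucine, chrM:3706-3774, plus strand): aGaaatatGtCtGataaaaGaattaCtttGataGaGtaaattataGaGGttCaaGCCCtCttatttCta
mt-Th (histidine, chrM:11546-11612, plus strand): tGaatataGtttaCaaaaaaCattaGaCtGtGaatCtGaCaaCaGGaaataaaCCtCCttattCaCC
mt-Ts2 (serine, chrM:11613-11671, plus strand): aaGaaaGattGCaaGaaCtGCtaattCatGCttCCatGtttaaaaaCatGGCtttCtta
mt-Tl2 (leucine, chrM:11671-11741, plus strand): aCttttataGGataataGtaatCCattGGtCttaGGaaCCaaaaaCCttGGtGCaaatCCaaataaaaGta
mt-Td (aspartate, chrM:6942-7011, plus strand): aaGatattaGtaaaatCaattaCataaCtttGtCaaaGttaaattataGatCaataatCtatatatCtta
mt-Tg (glycine, chrM:9391-9458, plus strand): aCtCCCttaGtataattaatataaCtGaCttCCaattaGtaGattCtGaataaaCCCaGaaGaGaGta
mt-Tp (proline, chrM:15356-15422, minus strand): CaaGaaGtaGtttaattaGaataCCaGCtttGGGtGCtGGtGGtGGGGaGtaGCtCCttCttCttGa
The GC content of the 22 tRNA genes ran from 17.1% in mt-Td to 44.9% in mt-Tm, and their lengths from 59 bases in mt-Ts2 to 75 bases in mt-Tl1. A sequenced fragment is usually longer than such a gene, and the sources used here do not say how the authors assigned reads that span a tRNA and its neighbour. A tRNA count can therefore hold reads of a longer transcript that passes through the gene.

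The libraries held 60693078 to 68054627 counts each. Counts of Dmd, the dystrophin gene, were 71 to 164 in DMD-Null, 713 to 1254 in mdx and 412 to 3597 in WT, with the lowest WT values in WT 1 and WT 3. WT 1 and WT 3 stood apart from the other libraries, and DMD-Null 4 leaned the same way. Over nuclear genes, log2 deviations from the mean of all libraries followed GC content with a Spearman's rho of 0.444 in DMD-Null 4. In WT 1 and WT 3 rho was 0.657 and 0.610, and in the other 9 libraries it ran from -0.584 to -0.0865. This is a description over genes of 1 library each. Fast fibre markers were high in all groups, with 8 markers summing to 116825 to 162189 CPM (counts scaled to a common library size) in DMD-Null, 116624 to 153172 in mdx and 110279 to 253311 in WT. The summed level of 10 macrophage markers was 474 to 1006 CPM in DMD-Null, 785 to 1047 in mdx and 99.7 to 178 in WT. The sum of 9 slow and oxidative fibre markers was 2083 to 3376 CPM in DMD-Null, 2318 to 3055 in mdx and 4420 to 9904 in WT. The sum of 12 liver genes was 95.1 to 306 CPM in DMD-Null, 174 to 274 in mdx and 752 to 863 in WT, and 5 of the 12 were at 0 in at least 1 library. The sum of 6 lung genes was 0.285 to 0.486 CPM in DMD-Null, 13.5 to 16.7 in mdx and 0.196 to 1.03 in WT. Only 2 of the 6 passed the filter, and 5 were at 0 in at least 1 library. The sum of 5 red blood cell markers was 194 to 339 CPM in DMD-Null, 325 to 1351 in mdx and 589 to 775 in WT. The part of these cells in the mitochondrial results was not tested, and in bulk muscle fewer cells of a type and less RNA per cell cannot be told apart.

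The mitochondrial share of a library is the fraction of all counts that fell on the 37 genes. The share was 13.6%, 10.4%, 11.6% and 9.31% in DMD-Null 1 to 4. In mdx 1 to 4 it was 11.3%, 10.7%, 10.4% and 14.1%. In WT 1 to 4 it was 4.96%, 19.3%, 6.57% and 13.5%. The mutant libraries thus lay close together and inside the range of WT, where the lowest and the highest share of all 12 libraries were found. Means were 11.2% ± 1.86 in DMD-Null, 11.6% ± 1.68 in mdx and 11.1% ± 6.60 in WT (SD, n = 4 each). The difference of means was 0.144 percentage points for DMD-Null minus WT, 0.531 for mdx minus WT and -0.387 for DMD-Null minus mdx, all smaller than the SD of any group.

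The 3 lowest shares belonged to the 3 libraries with a positive GC trend, DMD-Null 4, WT 1 and WT 3. Without WT 1 and WT 3, the other WT libraries, with 19.3% and 13.5%, averaged more than the mutants, and the difference of means became -5.16 percentage points for DMD-Null minus WT and -4.78 for mdx minus WT. With 2 WT libraries left, mdx 4 at 14.1% and DMD-Null 1 at 13.6% still lay above WT 4. Against library totals scaled by TMM, edgeR's correction for differences in composition, the difference was -2.63 percentage points for DMD-Null minus WT and -2.26 for mdx minus WT. Leaving out single mutant libraries also turned the sign, to -0.662 without DMD-Null 1 and to -0.289 for mdx without mdx 4. The comparison of shares with WT thus had no settled direction.

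**Figure D1:**
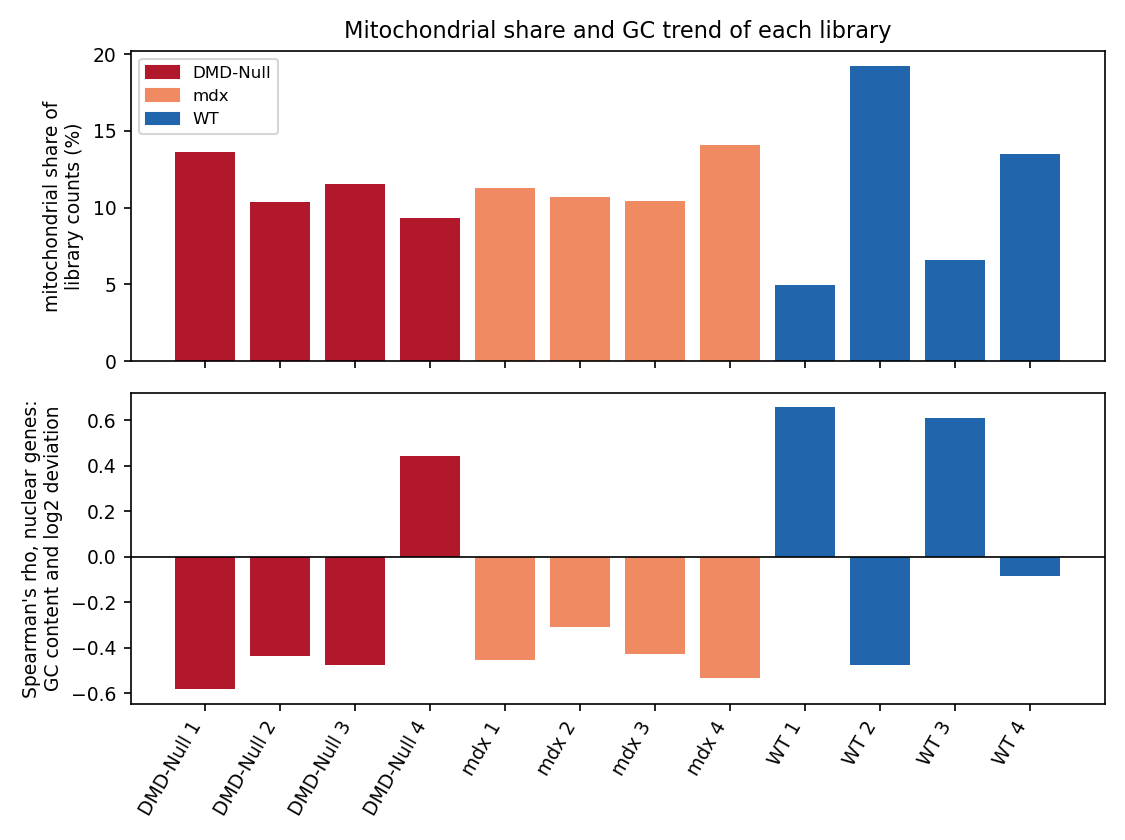
Mitochondrial share of library counts in percent (upper panel) and Spearman's rho between GC content and log2 deviation across nuclear genes (lower panel), with 1 bar for each of the 12 libraries. WT 1 and WT 3 have the lowest shares, 4.96% and 6.57%, and the highest rho, 0.657 and 0.610.

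Mitochondrial mRNAs are poor in G and C: their GC content ran from 31.9% to 41.1%, with a median of 37.1%, against a median of 50.5% in the nuclear genes tested. Only 7.42% of the nuclear genes tested lay at or under the highest mitochondrial mRNA. The deviation of the mitochondrial mRNAs was therefore set beside that of nuclear genes within 1 percentage point of the same GC content, which was possible for the 10 mRNAs with at least 20 such genes. In DMD-Null 4 the median log2 deviation from the mean of all libraries was -0.18 for the 13 mitochondrial mRNAs and -0.25 for the nuclear genes of like GC content. In WT 1 it was -1.20 and -1.78, and in WT 3 it was -0.79 and -1.795. In these 3 libraries AT-rich nuclear genes were thus lower than the mean of all libraries together with the mitochondrial mRNAs, and were lower by more.

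In the other 7 mutant libraries the median deviation of the mitochondrial mRNAs was below that of nuclear genes of their own GC content. In DMD-Null 1 to 3 the mitochondrial mRNAs deviated by 0.36, -0.02 and 0.14, and the nuclear genes by 0.53, 0.58 and 0.63. In mdx 1 to 4 the mitochondrial mRNAs deviated by 0.11, 0.04, 0.02 and 0.37, and the nuclear genes by 0.45, 0.33, 0.46 and 0.62. In the other 2 WT libraries the deviation of the mitochondrial mRNAs was the higher one, at 0.85 against 0.35 in WT 2 and 0.39 against -0.08 in WT 4. The deviation of the mitochondrial mRNAs was therefore below that of nuclear genes of the same GC content in 7 of 8 mutant libraries. It was above it in DMD-Null 4 and in all 4 WT libraries. This is a description, with no test. Every deviation is taken from the mean of the same libraries, so a positive gap in WT goes with negative gaps elsewhere, and the signs are not independent.

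Among the 37 genes, mRNAs took 97.7% to 98.0% of the mitochondrial counts in DMD-Null, 97.2% to 97.9% in mdx and 96.9% to 97.7% in WT. The rRNAs, which build the mitochondrial ribosome, took 1.66% to 2.06% in DMD-Null, 1.84% to 2.48% in mdx and 1.56% to 2.65% in WT. The tRNAs took a small share: 0.294%, 0.286%, 0.306% and 0.329% in DMD-Null 1 to 4, 0.314%, 0.357%, 0.300% and 0.287% in mdx, and 0.709%, 0.426%, 0.710% and 0.427% in WT 1 to 4. All 8 mutant libraries lay below all 4 WT libraries, and within WT the share was larger in WT 1 and WT 3 than in WT 2 and WT 4. The mutants overlapped each other. Means were 0.304% ± 0.0186 in DMD-Null, 0.315% ± 0.0308 in mdx and 0.568% ± 0.164 in WT (SD, n = 4 each). Most of this share came from mt-Ts1 and mt-Te, which held 66.6% to 78.8% of the tRNA counts in DMD-Null, 63.99% to 72.6% in mdx and 54.9% to 82.9% in WT. Of all mitochondrial counts, mt-Ts1 and mt-Te together took 0.588% and 0.524% in WT 1 and WT 3, and 0.234% and 0.282% in WT 2 and WT 4. In DMD-Null they took 0.196% to 0.259% and in mdx 0.189% to 0.259%. For mt-Ts1 alone, WT 2, with 0.0711% of mitochondrial counts, lay below every mutant library. The other 20 tRNAs together took 0.0696% to 0.0992% in DMD-Null, 0.0944% to 0.113% in mdx and 0.121% to 0.192% in WT, again with no overlap between either mutant and WT. A share over the chosen genes carries no test here, and the tests below are those of single genes.

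Levels per gene length differed widely among the mRNAs. The highest mean over the 12 libraries was that of mt-Co1, the catalytic subunit of complex IV, with 19553 FPKM, followed by mt-Nd1 of complex I with 10408, mt-Cytb of complex III with 10279, mt-Atp6 of the ATP synthase with 9640, mt-Co2 with 8936 and mt-Co3 with 8499. The lowest was that of mt-Nd3 of complex I, with 1581 FPKM. Within each genotype the SDs of mt-Nd1, mt-Cytb and mt-Atp6 exceeded the gaps between them. All were measured in the same libraries, so these SDs do not settle their order, which was not tested. The rRNAs mt-Rnr1 and mt-Rnr2 stood at 904 and 770 FPKM. Among tRNAs, mt-Te and mt-Ts1 were far above the rest, at 2052 and 1631 FPKM, and the others ranged from 5.34 FPKM in mt-Tf to 382 FPKM in mt-Tl1. Both mt-Te and mt-Ts1 lie on the minus strand, mt-Te directly beside mt-Nd6 and mt-Ts1 overlapping the last 3 bases of mt-Co1.

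In DMD-Null muscle against WT, most tRNA genes fell. Scaled to the whole library, 17 of the 22 tRNAs and 2 of the 13 mRNAs were lower in edgeR's quasi-likelihood test at an adjusted p under 0.05, neither rRNA passed, and no mitochondrial gene was higher. Over all 11376 genes tested, 15.6% were lower and 12.9% higher. The median log2 fold change was -1.49 in the tRNAs, -0.32 in the mRNAs and -0.63 in the rRNAs, against 0.01 over all genes tested. The groups did not overlap, with DMD-Null below WT, for 9 tRNAs and 1 mRNA, and over all genes tested that share was 10.1%.

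The mt-Tt tRNA, which carries threonine, had the smallest adjusted p. Its counts were 23, 23, 39 and 21 in DMD-Null 1 to 4, against 60, 128, 78 and 110 in WT 1 to 4. Every DMD-Null library was below every WT library. TMM-scaled levels averaged 0.380 ± 0.102 CPM in DMD-Null and 1.82 ± 0.346 CPM in WT (SD, n = 4 each), a log2 fold change of -2.25 (edgeR adjusted p = 9.3e-05, SE 0.24). The isoleucine tRNA mt-Ti had counts of 232, 153, 151 and 176 in DMD-Null, against 302, 655, 641 and 640 in WT, and a log2 fold change of -2.09 (edgeR adjusted p = 0.00018, SE 0.25). Here too no DMD-Null library reached the WT libraries, of which WT 1 was the lowest. The valine tRNA mt-Tv, between the 2 rRNA genes, had a log2 fold change of -2.46 (edgeR adjusted p = 0.00097, SE 0.38), with 11 to 21 counts in DMD-Null and 31 to 121 in WT. The lysine tRNA mt-Tk fell by 2.33 (edgeR adjusted p = 0.0016, SE 0.39).

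The 3 adjacent tRNAs mt-Th, mt-Ts2 and mt-Tl2 had the largest log2 fold changes, -3.39, -3.48 and -3.10 (edgeR adjusted p = 0.0044, 0.0052 and 0.0029). Their size rested partly on WT 3. Counts of mt-Th were 31, 25, 56 and 68 in DMD-Null, against 117, 97, 780 and 300 in WT. WT 3 had the highest count of each of the 3, with 780, 601 and 623, while every other library held 300 or fewer. Without WT 3, log2 fold changes were still negative, at -2.29 for mt-Th, -2.30 for mt-Ts2 and -2.14 for mt-Tl2, and all 3 passed.

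Other tRNAs that passed had smaller changes. The minus-strand serine tRNA mt-Ts1 averaged 94.0 ± 18.05 CPM in DMD-Null and 216 ± 68.5 CPM in WT (SD, n = 4 each), a log2 fold change of -1.20 (edgeR adjusted p = 0.0028, SE 0.22). The glutamate tRNA mt-Te had a log2 fold change of -0.92 (edgeR adjusted p = 0.011, SE 0.22). The glutamine tRNA mt-Tq, which overlaps mt-Ti by 3 bases on the opposite strand, had counts of 380, 212, 254 and 187 in DMD-Null, against 206, 916, 401 and 570 in WT, and a log2 fold change of -1.41 (edgeR adjusted p = 0.011, SE 0.34). The counts overlapped, since WT 1 was as low as the DMD-Null libraries. The cluster of mt-Tw, mt-Ta, mt-Tn, mt-Tc and mt-Ty between mt-Nd2 and mt-Co1 had log2 fold changes of -1.37, -1.28, -1.24, -1.32 and -1.22, of which the first 4 passed (edgeR adjusted p = 0.013 to 0.017) and mt-Ty did not (edgeR adjusted p = 0.087). The other tRNAs that did not pass were mt-Tf, mt-Tl1, mt-Tm and mt-Tp. The proline tRNA mt-Tp was the least changed tRNA, with 11.2 ± 2.23 CPM in DMD-Null and 14.5 ± 7.81 CPM in WT (SD, n = 4 each) and a log2 fold change of -0.38 (edgeR adjusted p = 0.36, SE 0.32). Of the 19 calls, 13 held when any single library was left out. The calls of mt-Tw, mt-Tn, mt-Tc and mt-Nd3 ended without DMD-Null 2, that of mt-Td without DMD-Null 1 or DMD-Null 2, and that of mt-Tg without WT 3 or any single mutant library.

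**Figure D2:**
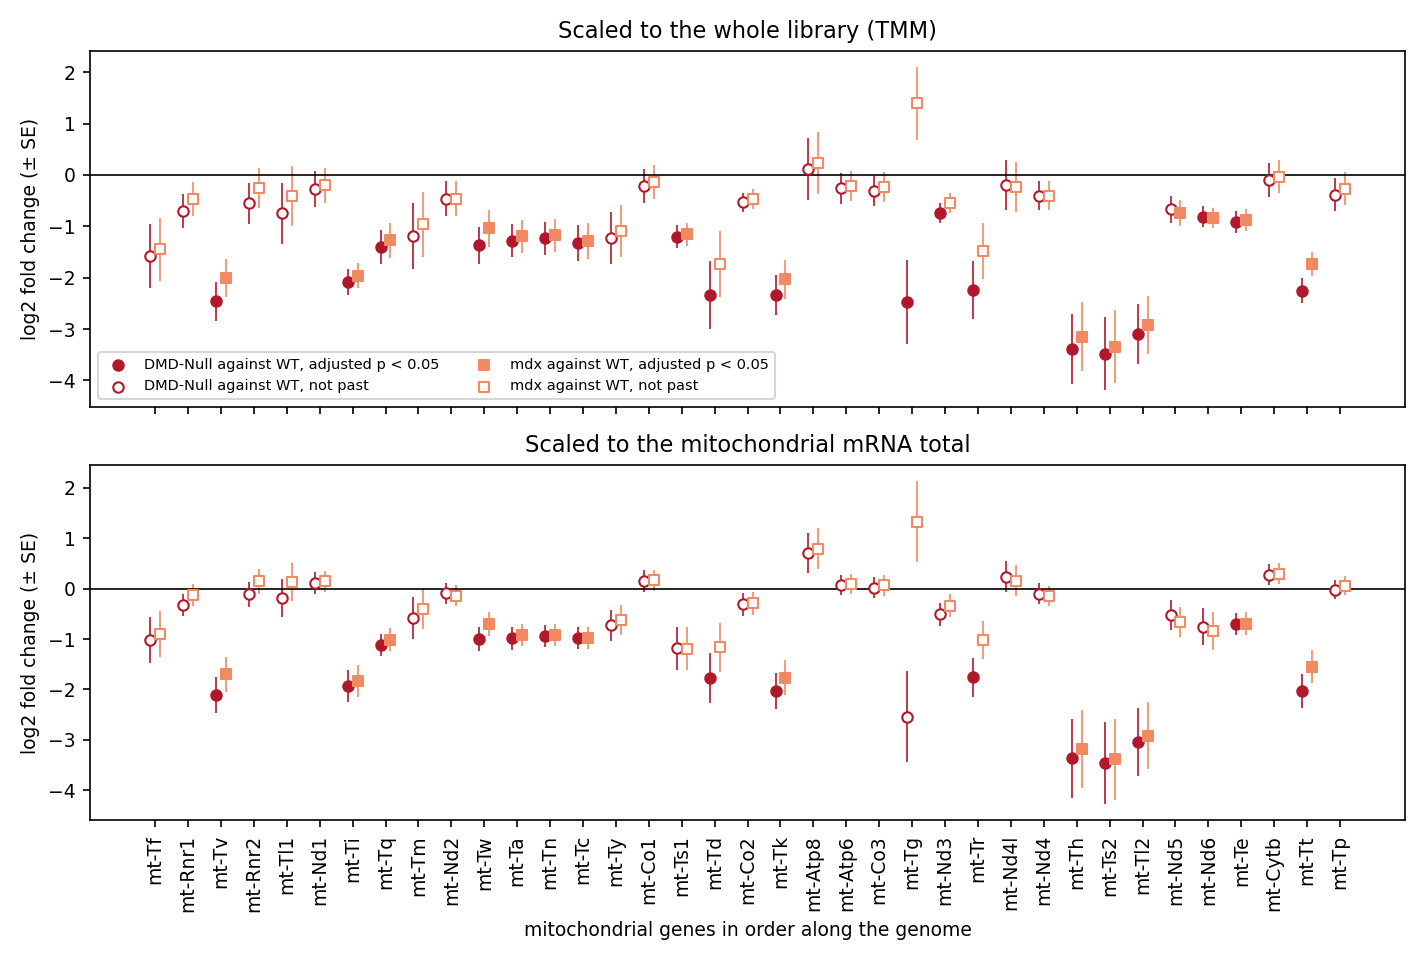
Log2 fold change with its SE for each of the 37 mitochondrial genes in DMD-Null against WT (circles) and mdx against WT (squares), in order along the genome, scaled to the whole library (upper panel) and to the mitochondrial mRNA total (lower panel). Filled symbols passed an adjusted p of 0.05, and in the lower panel they are all tRNA genes.

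The 2 mRNAs that fell in DMD-Null were mt-Nd3 and mt-Nd6, both subunits of the membrane arm of complex I. As a share of the 13 mRNAs, this was near the 15.6% of all genes tested that were lower. The mt-Nd6 gene is the only mRNA on the minus strand. Whether reads were counted by strand is not known, so its counts could include reads of the opposite strand. Levels of mt-Nd6 averaged 2265 ± 417 CPM in DMD-Null and 3979 ± 878 CPM in WT (SD, n = 4 each). There was no overlap, and the log2 fold change was -0.81 (edgeR adjusted p = 0.012, SE 0.20). For mt-Nd3 the levels were 489 ± 85.1 CPM in DMD-Null and 819 ± 227 CPM in WT, a log2 fold change of -0.74 (edgeR adjusted p = 0.017, SE 0.20). The remaining 11 mRNAs had log2 fold changes of -0.67 in mt-Nd5 to 0.12 in mt-Atp8. Catalytic mt-Co1 stood at 30965 ± 5131 CPM in DMD-Null and 35948 ± 19119 CPM in WT, and the SEs of these 11 mRNAs ran from 0.19 to 0.60.

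In mdx muscle against WT, 14 of the 22 tRNAs and 2 of the 13 mRNAs were lower, neither rRNA passed and no mitochondrial gene was higher. Over all genes tested, 20.1% were lower and 15% higher. Both comparisons share the WT libraries, so the values of the 2 mutants are not independent of each other. The median log2 fold change was -1.28 in the tRNAs, -0.24 in the mRNAs and -0.36 in the rRNAs, against 0.00 over all genes tested. Levels did not overlap, with mdx below WT, for 12 tRNAs and 1 mRNA, against 14.7% of all genes tested.

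The smallest adjusted p in mdx was that of mt-Ti. Its counts were 179, 219, 204 and 205 in mdx 1 to 4, against 302, 655, 641 and 640 in WT, a log2 fold change of -1.96 (edgeR adjusted p = 0.00022, SE 0.25). Counts of mt-Tt were 42, 37, 44 and 34 in mdx, against 60, 128, 78 and 110 in WT, a log2 fold change of -1.73 (edgeR adjusted p = 0.00035, SE 0.23). In both genes every mdx library lay below every WT library. The lysine tRNA mt-Tk had a log2 fold change of -2.03 (edgeR adjusted p = 0.0028, SE 0.38) and the valine tRNA mt-Tv of -2.01 (edgeR adjusted p = 0.0026, SE 0.37). Counts of mt-Tq were 305, 250, 249 and 371 in mdx, a log2 fold change of -1.27 (edgeR adjusted p = 0.015, SE 0.34). The adjacent mt-Th, mt-Ts2 and mt-Tl2 had log2 fold changes of -3.15, -3.35 and -2.92. Without WT 3 these were -2.05, -2.17 and -1.96, and all 3 passed.

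The mRNAs that fell in mdx were mt-Nd5, a core subunit of the proton-pumping arm of complex I, and mt-Nd6. As a share of the 13 mRNAs, this was below the 20.1% of all genes tested that were lower. For mt-Nd6 the level was 2227 ± 333 CPM in mdx, against 3979 ± 878 CPM in WT (SD, n = 4 each), a log2 fold change of -0.84 (edgeR adjusted p = 0.0095, SE 0.20). For mt-Nd5 it was 6088 ± 1811 CPM in mdx, against 10188 ± 2796 CPM in WT, a log2 fold change of -0.74 (edgeR adjusted p = 0.043, SE 0.26). The groups overlapped for mt-Nd5, and its call ended without any 1 of DMD-Null 2, DMD-Null 3, mdx 1, mdx 2, mdx 3, WT 2 and WT 3. In mdx, 12 of the 16 calls held when any single library was left out. The call of mt-Tw held in 2 such fits, those without DMD-Null 4 or WT 1, and those of mt-Tn and mt-Tc ended without mdx 3.

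The WT split bears on the mRNAs more than on the tRNAs. Without WT 1 and WT 3, 10 of 13 mRNAs, both rRNAs and 21 of 22 tRNAs were lower in DMD-Null than in WT 2 and WT 4, where 9.84% of all genes tested were lower. In mdx, 10 mRNAs, both rRNAs and 21 tRNAs were lower and mt-Tg was higher, where 10.9% of all genes tested were lower and 12.4% higher. The median log2 fold change of the mRNAs was then -0.81 in DMD-Null and -0.74 in mdx, and mt-Atp8, mt-Nd4l and mt-Nd5 did not pass in either. With offsets that remove each library's trend with GC content, 11 mRNAs, both rRNAs and 21 tRNAs were lower in DMD-Null, against 22.4% of all genes tested. In mdx these offsets gave 11 mRNAs, both rRNAs and 19 tRNAs lower, against 26.9% of all genes tested. The curve behind the offsets was fitted to nuclear genes, and only 10 of the 13 mRNAs had at least 20 of these within 1 percentage point of GC content. At the lowest GC contents, down to 17.1% in the tRNA genes, the curve thus rests on few or no nuclear genes, which limits these calls. With library totals alone as the scale, the median log2 fold change of all genes shifted to 0.43 in DMD-Null and 0.42 in mdx, and those of the mRNAs to 0.03 and 0.07. On that scale 9 tRNAs and no mRNA were lower in DMD-Null, against 5.05% of all genes tested. In mdx 8 tRNAs were lower and mt-Tg higher, against 6.24% lower and 29.1% higher of all genes tested. The number of mRNAs that fell thus ranged between 0 and 11 with the scaling and with the handling of WT 1 and WT 3, and no library-wide setting called an mRNA higher.

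The balance between the genes was tested by scaling each library to its own summed mitochondrial mRNA counts, so that a change common to all mitochondrial mRNAs drops out. In DMD-Null, 15 of 22 tRNAs were lower relative to the mRNA total, and no mRNA or rRNA passed in either direction (edgeR, with 1 mRNA at an unadjusted p under 0.05). On that scale 2.76% of all genes tested were lower and 23.8% higher. In mdx, 13 of 22 tRNAs were lower and no mRNA or rRNA passed (edgeR, with 2 mRNAs at an unadjusted p under 0.05), where 3.74% of all genes tested were lower and 23.6% higher. The median log2 fold change of the tRNAs relative to the mRNA total was -1.15 in DMD-Null and -0.99 in mdx, against 0.02 and 0.07 in the mRNAs themselves. Over all genes tested the median on this scale was 0.16 in DMD-Null and 0.10 in mdx.

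Relative to the mRNA total, mt-Ti fell by 1.93 in DMD-Null (edgeR adjusted p = 0.0018, SE 0.32) and by 1.83 in mdx (edgeR adjusted p = 0.0021, SE 0.32). For mt-Tt the values were -2.04 in DMD-Null (edgeR adjusted p = 0.0018, SE 0.34) and -1.55 in mdx (edgeR adjusted p = 0.0050, SE 0.33). On this scale mt-Tq lay below WT in every mutant library, with -1.12 in DMD-Null (edgeR adjusted p = 0.0045, SE 0.23) and -1.01 in mdx (edgeR adjusted p = 0.0066, SE 0.23). The arginine tRNA mt-Tr passed in DMD-Null, with a log2 fold change of -1.76 (edgeR adjusted p = 0.0064), and had -1.01 in mdx (edgeR adjusted p = 0.061). The smallest log2 fold changes of tRNAs relative to the mRNAs were those of mt-Tp, with -0.02 in DMD-Null and 0.06 in mdx, and mt-Tl1, with -0.18 and 0.13, neither past the threshold. Without WT 1 and WT 3, 18 tRNAs were lower relative to the mRNA total in DMD-Null, where 1.49% of all genes tested were lower. In mdx, 17 tRNAs were lower, mt-Tg was higher, where 1.43% of all genes tested were lower and 52.7% higher, and no mRNA passed in either mutant. Without WT 2, by contrast, mt-Atp8 was higher and mt-Nd6 lower in both mutants relative to the mRNA total, while mt-Nd3 was lower in DMD-Null and mt-Nd5 in mdx. In that setting 23.5% of all genes tested were higher and 16.6% lower in DMD-Null, and 23.7% higher and 22.3% lower in mdx. Of the calls of the balance, 13 of 15 in DMD-Null and 11 of 13 in mdx held when any single library was left out. In DMD-Null the call of mt-Td ended without DMD-Null 2 or DMD-Null 4, and that of mt-Te without mdx 1, WT 1, WT 3 or any single DMD-Null library. In mdx the call of mt-Te ended without DMD-Null 3, mdx 1, mdx 3, mdx 4, WT 1 or WT 3, and that of mt-Tw held only without DMD-Null 2 or WT 1. The call of mt-Te also ended in both mutants without WT 1 and WT 3.

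Several balances set WT 1 and WT 3 apart from all other libraries, and a few also separated a mutant from WT. The mt-Nd5 mRNA took 6.64%, 5.76%, 6.42% and 6.61% of the mitochondrial mRNA counts in DMD-Null 1 to 4, 5.93%, 5.11%, 5.12% and 6.98% in mdx, and 12.5%, 6.89%, 11.95% and 5.18% in WT 1 to 4. The mt-Nd6 mRNA took 1.97% to 2.99% in the mutants, and 5.84%, 1.76%, 5.59% and 2.25% in WT 1 to 4. In both genes WT 2 and WT 4 lay among or just below the mutants. The mt-Co2 and mt-Nd3 mRNAs also took their largest shares in WT 1 and WT 3, at 8.44% and 8.72% for mt-Co2 and 0.782% and 0.8287% for mt-Nd3. The mt-Cytb mRNA took its smallest, 9.12% and 9.34%, against 11.97% to 12.8% in the mutants and 11.2% in both WT 2 and WT 4. It was the only mRNA whose share was higher in every mutant library of both genotypes than in every WT library, and it did not pass. Higher levels without overlap on that scale were found for 22.8% of all genes tested in DMD-Null and 26.5% in mdx, and the test of mt-Cytb gave 0.27 and 0.29 on the log2 scale (edgeR adjusted p = 0.35 in DMD-Null and 0.30 in mdx).

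**Figure D3:**
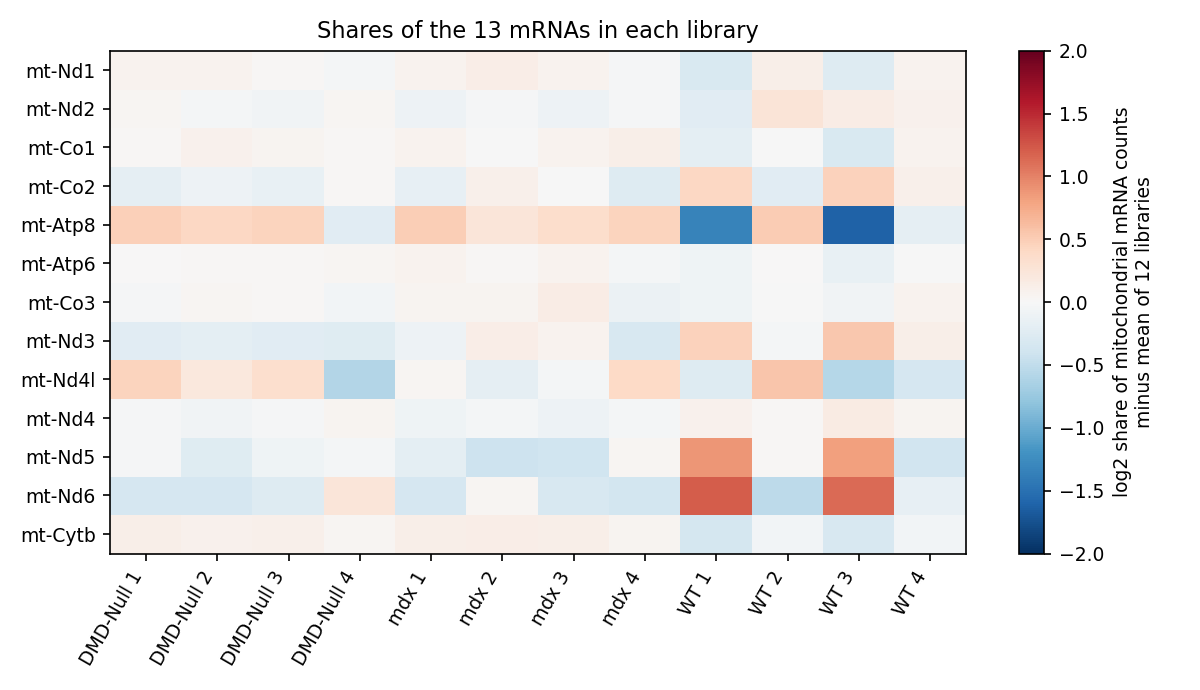
Log2 share of each of the 13 mitochondrial mRNAs in the mitochondrial mRNA counts, minus its mean over the 12 libraries, with genes in order along the genome and libraries in columns. WT 1 and WT 3 differ from the other libraries, with high mt-Nd5 and mt-Nd6 and low mt-Atp8.

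The short mt-Atp8 gene encodes a small subunit of the ATP synthase, and its last 43 bases are also the first bases of mt-Atp6, with which it shares a transcript. The gene is shown because the balance between the 2 differed widely between libraries, with the stretch shared with mt-Atp6 in capitals.
mt-Atp8 (chrM:7766-7969, plus strand, GRCm38): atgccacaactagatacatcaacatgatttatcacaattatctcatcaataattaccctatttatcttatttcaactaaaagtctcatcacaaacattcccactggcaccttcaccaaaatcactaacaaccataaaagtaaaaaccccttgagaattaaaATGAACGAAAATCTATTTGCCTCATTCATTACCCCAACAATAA
With 31.9% it has the lowest GC content of the mRNAs. Counts of mt-Atp8 as a percentage of those of mt-Atp6 were 25.4, 23.8, 24.3 and 15.2 in DMD-Null 1 to 4, 24.5, 21.4, 22.3 and 25.5 in mdx, and 7.71, 25.7, 6.61 and 16.1 in WT 1 to 4. The values of WT 1 and WT 3 were below all others, and those of DMD-Null 4 and WT 4 came next. On this balance the genotypes overlapped: relative to the mRNA total, mt-Atp8 had log2 fold changes of 0.71 in DMD-Null (edgeR adjusted p = 0.21, SE 0.40) and 0.79 in mdx (edgeR adjusted p = 0.16, SE 0.40). The mt-Nd4l gene shares a transcript and 7 bases with mt-Nd4. Its counts as a percentage of those of mt-Nd4 were 10.8, 9.60, 10.1 and 4.996 in DMD-Null, 8.57, 7.07, 8.18 and 10.6 in mdx, and 6.17, 11.3, 4.73 and 5.95 in WT. They were lowest in WT 3, DMD-Null 4, WT 4 and WT 1. The GC content of mt-Nd4l, 41.1%, is the highest of the mRNAs.

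Across the 13 mRNAs, Spearman's rho between GC content and the log2 deviation of a gene's share of the mRNA counts was -0.13 in DMD-Null 4, -0.29 in WT 1, -0.40 in WT 3 and -0.23 to 0.42 in the other 9 libraries. The sign in WT 1 and WT 3 was the opposite of that across their nuclear genes. These are descriptions over 13 genes that share transcripts and depth.

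Part of the mitochondrial genome has a nuclear copy. Chromosome 1 carries, from 24611535 to 24616197, copies of part of mt-Nd4 (Gm28439), of mt-Nd3 (Gm28438), mt-Co3 (Gm28437), mt-Atp6 (Gm10925) and mt-Co2 (Gm28661), and of the end of mt-Co1 (Gm29216). Over the bases that aligned with the mitochondrial genes, 4 of the 6 copies were identical and 2 differed by 1 base. These were T3C in mt-Nd3 and A1066T in mt-Co1, with positions counted from the first base of the mitochondrial gene and the base of the copy last. In Gm29216 only 483 of 492 bases aligned. The copies hold 1.65% to 4.82% of all counts. Counts of the 4 copies that span all but the last 1 to 3 bases of a gene were 94.5% to 105% of those of their mitochondrial partner in every library, and the sources used here do not say how reads that match both were assigned. Levels of mt-Co2, mt-Atp6, mt-Co3 and mt-Nd3 are uncertain for that reason, and so are those of mt-Co1, mt-Nd4 and mt-Atp8, each of which shares part of its length with a copy. The genes mt-Nd4l, mt-Ts1, mt-Td, mt-Tk, mt-Tg and mt-Tr lie between the copied genes and were not compared with the sequence of chromosome 1, so their levels are uncertain as well. The genes mt-Nd1, mt-Nd2, mt-Nd5, mt-Nd6, mt-Cytb and both rRNAs lie outside the copy. Further copies on chromosome 2, with 95.9% to 97.6% identity, held at most 0.427% of the counts of their partner.

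The copy Gm29216 matches the last 483 bases of mt-Co1, and its counts as a percentage of those of mt-Co1 were 9.97, 10.7, 9.46 and 15.9 in DMD-Null 1 to 4, 9.99, 13.6, 12.02 and 9.29 in mdx, and 38.8, 9.52, 38.7 and 15.1 in WT 1 to 4. The copy Gm28439 matches the first 876 bases of mt-Nd4, and its counts as a percentage of those of mt-Nd4 were 38.7, 36.8, 38.2 and 29.4 in DMD-Null, 36.6, 31.6, 34.4 and 40.2 in mdx, and 25.955, 40.9, 22.2 and 31.4 in WT. The copy of the 3′ end of mt-Co1 was thus higher, and that of the 5′ part of mt-Nd4 lower, in WT 1 and WT 3 than in any other library, and WT 2 lay among or next to the mutants. Coverage along the genes was not measured. The overlapping minus-strand mt-Ts1 was also high there. Counts of mt-Ts1, which abuts the end of mt-Co1, were 0.240% to 0.439% of those of mt-Co1 in the mutants, and 1.33%, 0.247%, 1.34% and 0.398% in WT 1 to 4. The sources used here do not say whether reads were counted by strand. Reads of mt-Ts1 and mt-Co1, or of mt-Nd6 and mt-Nd5, thus cannot be told apart in their overlaps of 3 and 14 bases. Transcripts of the other strand that run past an annotated gene end could add further reads to mt-Ts1, mt-Te and mt-Nd6. Their counts are uncertain for that reason, and this was not tested. Relative to the mRNA total, mt-Ts1 did not pass (edgeR adjusted p = 0.056 in DMD-Null and 0.052 in mdx), and without WT 1 and WT 3 its log2 fold changes on that scale were -0.05 and -0.07.

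**Figure D4:**
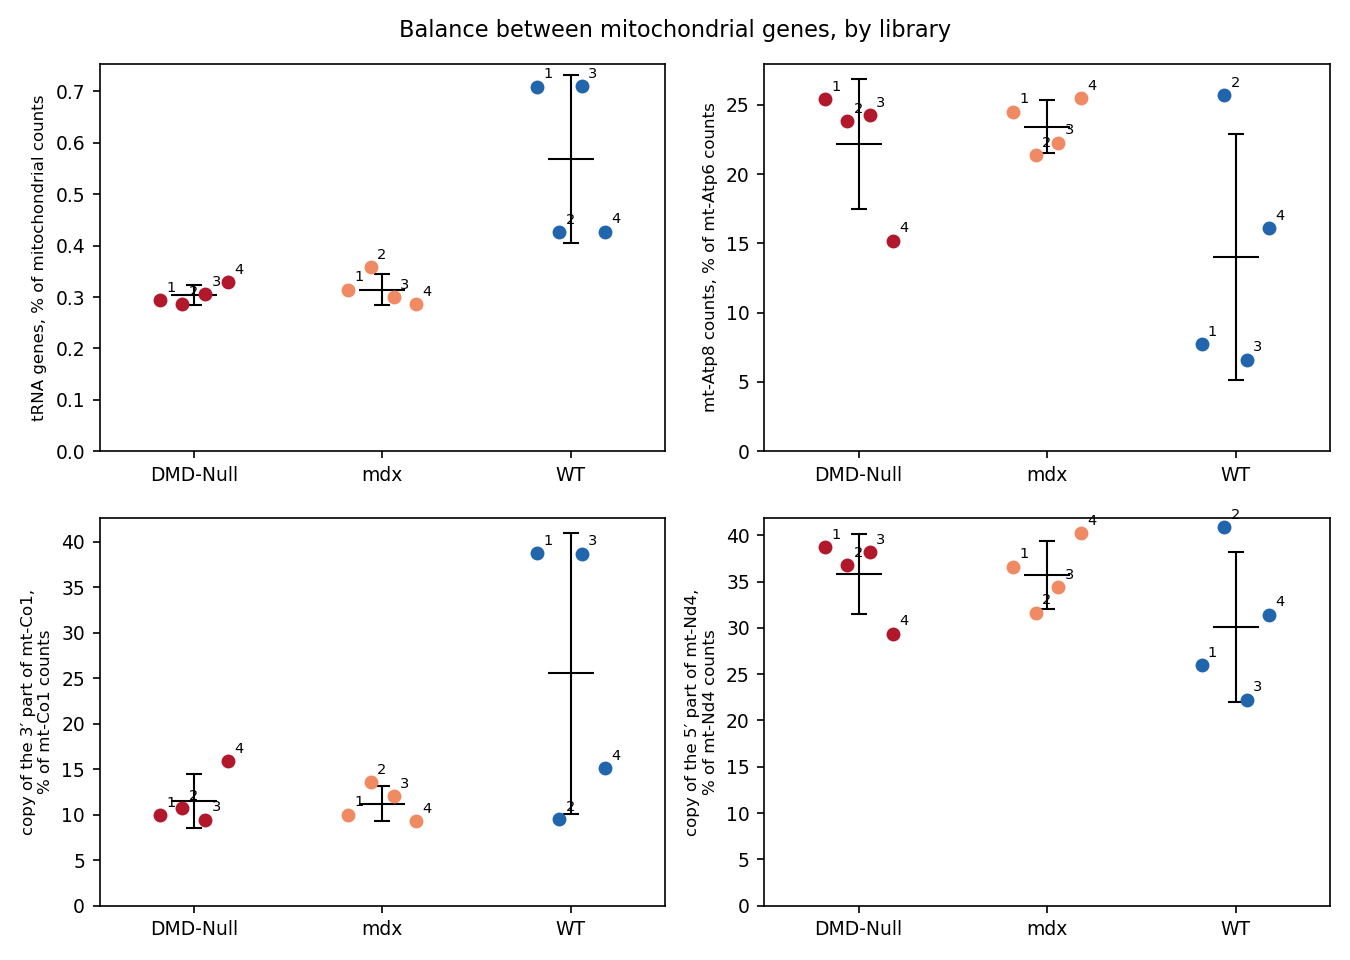
Balance between mitochondrial genes in each library, as points numbered by replicate with the mean and SD of 4 libraries: tRNA share of mitochondrial counts, mt-Atp8 against mt-Atp6, the 3′ copy of mt-Co1 against mt-Co1, and the 5′ copy of mt-Nd4 against mt-Nd4, all in percent. The tRNA share is below WT in all 8 mutant libraries, and within WT it is larger in WT 1 and WT 3 than in WT 2 and WT 4. The other 3 balances also set WT 1 and WT 3 apart from WT 2.

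Between DMD-Null and mdx, no mitochondrial gene passed, with 2 of the 37 at an unadjusted p under 0.05, the tRNAs mt-Tg and mt-Tt. Over all genes tested edgeR called 0.0176%, all of them lower in DMD-Null. DESeq2 called 1 mitochondrial gene, as did edgeR on the 8 libraries of both mutants, and limma on log2 FPKM called 0. The median log2 fold change was -0.16 in the tRNAs, -0.06 in the mRNAs and -0.27 in the rRNAs. All 13 mRNAs had log2 fold changes between -0.21 and 0.07, with SEs of 0.19 to 0.60.

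The gene called by those fits was mt-Tg, the glycine tRNA between mt-Co3 and mt-Nd3, which was singled out after its values were seen. Its counts were 9, 2, 18 and 6 in DMD-Null 1 to 4, 116, 168, 141 and 104 in mdx, and 17, 3, 81 and 32 in WT 1 to 4. All DMD-Null libraries lay below all mdx libraries, and no gene among the 37 other than mt-Tg was separated in this way at TMM-scaled levels, where 1.02% of all genes tested lay lower without overlap. Levels averaged 0.125 ± 0.0914 CPM in DMD-Null and 1.86 ± 0.447 CPM in mdx (SD, n = 4 each), with 0.717 ± 0.804 CPM in WT. The log2 fold change of DMD-Null against mdx was -3.86 (SE 0.81), with an unadjusted p of 0.00046 and an edgeR adjusted p of 1. The adjusted p ranged from 0.0018 to 1 over the 25 other settings, of which 2 called it, and the log2 fold change stayed between -4.43 and -3.50. Against WT, mt-Tg fell in DMD-Null by 2.47 (edgeR adjusted p = 0.040, SE 0.81) and had 1.39 in mdx (edgeR adjusted p = 0.13, SE 0.71). It was the only tRNA whose log2 fold change in mdx was above 0, and with GC-corrected offsets that value was -0.45. WT 2, with 3 counts, lay among the DMD-Null libraries and WT 3, with 81, near mdx. With at most 18 counts in a DMD-Null library, these values carry a large counting error. The 68 bases of mt-Tg end directly before mt-Nd3, where the nuclear copy carries T3C. Counts of the copy Gm28438 as a percentage of those of mt-Nd3 were 97.6, 97.6, 99.7 and 98.5 in DMD-Null, 96.8, 96.3, 96.1 and 96.2 in mdx, and 99.1, 102, 103 and 101 in WT, so that mdx lay below both other groups.

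**Figure D5:**
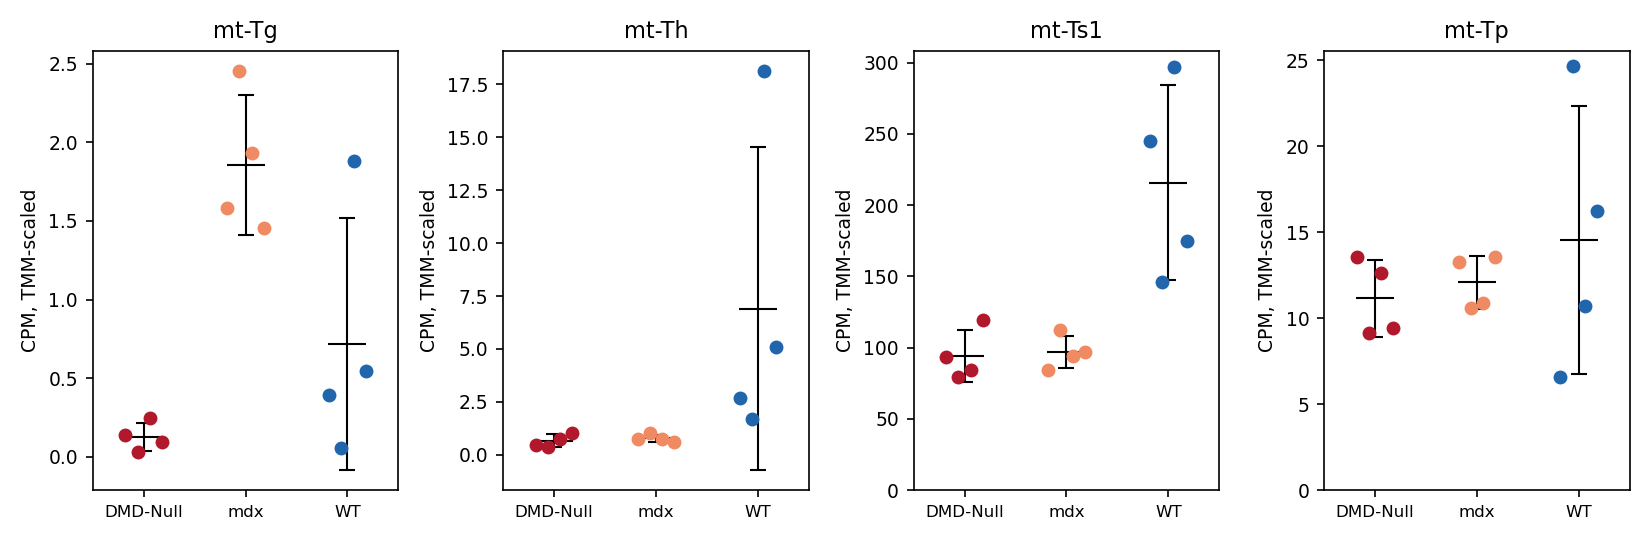
TMM-scaled level in CPM of 4 mitochondrial tRNA genes in each library, as points, with the mean and SD of 4 libraries. For mt-Tg all mdx libraries, at 1.46 CPM or more, lie above all DMD-Null libraries, for mt-Th WT 3 is far above the rest, for mt-Ts1 both mutants lie below WT, and for mt-Tp all groups overlap.

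Nuclear genes that serve the mitochondrial genome were read from lists of known factors. Of 17 tested genes for transcription and replication of mitochondrial DNA, 5 were lower in DMD-Null and 6 in mdx than in WT, and none was higher, with median log2 fold changes of -0.12 and -0.15. For this list and those that follow, 15.6% of all genes tested were lower in DMD-Null and 20.1% in mdx. With library totals alone, 1 of the 17 was lower and 1 higher in each mutant, and the medians were 0.28 and 0.20, below the medians of all genes on that scale, 0.43 and 0.42. On that scale 5.05% of all genes tested were lower and 29.1% higher in DMD-Null, and 6.24% lower and 29.1% higher in mdx. Polrmt, the mitochondrial RNA polymerase, averaged 31.2 ± 5.23 CPM in DMD-Null, 30.7 ± 2.19 CPM in mdx and 66.0 ± 33.9 CPM in WT (SD, n = 4 each). Its log2 fold changes were -1.08 (edgeR adjusted p = 0.024) and -1.10 (edgeR adjusted p = 0.019). Atad3a, a membrane protein of the nucleoid, had -1.29 in DMD-Null and -1.34 in mdx, the topoisomerase Top1mt had -0.89 in DMD-Null, and the helicase Twnk had -0.81 in mdx (edgeR adjusted p = 0.0041 to 0.0075 for these 4 values). Of 31 tested genes for processing, modification and stability of mitochondrial RNA, 10 were lower in DMD-Null and 14 in mdx, and none was higher. On library totals 3 were lower and 3 higher in each mutant, with medians of 0.06 and 0.01. The 3 largest changes in both mutants were those of Rpusd3, a pseudouridine synthase, Tbrg4, of the FASTK family of RNA-binding proteins, and Rbfa, a factor of ribosome assembly. Their log2 fold changes were -1.51, -1.26 and -1.07 in DMD-Null and -1.38, -1.33 and -1.05 in mdx (edgeR adjusted p = 0.0075 to 0.022). Without WT 1 and WT 3, 8 of the 31 were lower in each mutant, where 9.84% of all genes tested were lower in DMD-Null and 10.9% in mdx.

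Of 9 regulators of mitochondrial biogenesis, 3 were lower in each mutant and none was higher. Perm1, a muscle protein induced by PGC-1, averaged 193 ± 33.4 CPM in DMD-Null, 195 ± 20.7 CPM in mdx and 503 ± 95.9 CPM in WT (SD, n = 4 each). Its log2 fold changes were -1.38 (edgeR adjusted p = 0.00025, SE 0.17) and -1.36 (edgeR adjusted p = 0.00024, SE 0.17), and neither mutant overlapped WT. The coactivator Ppargc1b had -0.98 in DMD-Null and -1.01 in mdx, and the nuclear receptor Esrra had -0.93 in both (edgeR adjusted p = 0.0061 to 0.016). The counts were the same without WT 1 and WT 3, with 3 of 9 lower in each mutant. With library totals alone, 2 were lower and 2 higher in each mutant, and the median was 0.26 in DMD-Null and 0.06 in mdx, against -0.22 and -0.41 with TMM scaling.

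Mitochondrial subunits were set beside the nuclear subunits of the same complexes, with all libraries. In complex I, the 7 mitochondrial subunits had median log2 fold changes of -0.46 in both mutants, beside -0.79 in DMD-Null and -0.87 in mdx for the nuclear ones, of which 30 and 32 of 36 were lower, where 15.6% and 20.1% of all genes tested were lower. In complex III, mt-Cytb had -0.09 and -0.03, beside nuclear medians of -1.001 and -1.006, with 5 of 9 lower in each mutant. In complex IV, the 3 mitochondrial subunits had medians of -0.32 and -0.23, beside nuclear medians of -0.67 and -0.68, with 9 of 14 lower in DMD-Null and 11 of 14 in mdx. In the ATP synthase, mt-Atp6 and mt-Atp8 had medians of -0.07 and 0.01, beside nuclear medians of -0.64 and -0.66, with 11 of 15 lower in each mutant. In complex II, which holds no mitochondrial subunit, 1 of 4 was lower in each mutant, the iron-sulfur subunit Sdhb, at -1.13 and -1.07. No nuclear subunit of the 5 complexes was higher in either mutant with TMM scaling, and none passed between DMD-Null and mdx. With library totals alone, Cox8a of complex IV was higher, by 0.43 in DMD-Null and 0.44 in mdx (edgeR adjusted p = 0.013 and 0.012). That scale had 29.1% of all genes tested higher in each mutant, and these values were near the medians of all genes tested. With GC-corrected offsets Cox6a1 of complex IV was higher in mdx, by 0.27 (edgeR adjusted p = 0.029), where 17.1% of all genes tested were higher. Both genes were singled out after their values were seen. With library totals alone, 10 and 14 of 36 subunits of complex I were lower in DMD-Null and mdx, 4 and 5 of 9 of complex III, 4 and 6 of 14 of complex IV and 3 and 4 of 15 of the ATP synthase. Of all genes tested, 5.05% were lower in DMD-Null and 6.24% in mdx on that scale.

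Ndufs7 and Ndufv3 of complex I had log2 fold changes of -1.45 and -1.46 in DMD-Null, and Ndufb7 and Ndufv3 had -1.46 and -1.50 in mdx. Ndufs6 of complex I had log2 fold changes of -1.43 in DMD-Null and -1.54 in mdx, Uqcrc1 of complex III had -1.47 and -1.43, the muscle form Cox6a2 of complex IV had -1.35 and -1.31, and Atp5k of the ATP synthase had -1.55 and -1.63. In complex III, Uqcr11 had -1.35 and -1.52 and Uqcrq -1.31 and -1.42. In complex IV, Cox8b had -1.36 and -1.52 and Cox7a1 -1.25 and -1.44. In the ATP synthase, Atp5e had -1.44 and -1.65, Atp5d had -1.20 in DMD-Null and Atp5j2 had -1.24 in mdx. All of these passed (edgeR adjusted p = 0.0046 to 0.028). The order of nuclear and mitochondrial medians turned with the WT libraries used. Without WT 1 and WT 3, the 13 mitochondrial mRNAs had medians of -0.81 in DMD-Null and -0.74 in mdx. Nuclear medians were then nearer to 0 in 4 of the complexes, at -0.39 in complex I, -0.39 in complex III, -0.35 in complex IV and -0.32 in the ATP synthase in DMD-Null, where 15 of 36, 2 of 9, 8 of 14 and 6 of 15 were lower, against 9.84% of all genes tested. In mdx they were -0.39, -0.42, -0.37 and -0.38, where 18 of 36, 3 of 9, 7 of 14 and 7 of 15 were lower, against 10.9% of all genes tested. The median of complex II moved away from 0, to -0.30 in DMD-Null and -0.25 in mdx, against -0.05 and -0.01 with all libraries. The difference between nuclear and mitochondrial subunits was not tested.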

How the data were processed

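Poly(A) RNA of tibialis anterior was sequenced in 12 libraries, from RNA with a high integrity number and a stranded kit, per the labels' protocols. The authors deposited 1 table with a read count and an FPKM value per gene and library. Per the submitters' processing notes, cutadapt 1.10, FastQC 0.10.1, HISAT2 2.0 and StringTie 1.3.4 were used with GRCm39. The coordinates of the mitochondrial genes in the table equal those of GENCODE M21 on GRCm38 for 37 of 37 genes, and coordinates are given on that build. Sequences and GC contents come from the GENCODE M21 transcripts. The sources used here do not say whether reads were counted by strand or how reads with several matches were handled.

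Deposited counts were tested with edgeR 4.0.16 (quasi-likelihood, TMM scaling, all 12 libraries in 1 fit, R 4.3.3) over 11376 genes with an FPKM of at least 1 in at least 4 libraries. The Benjamini-Hochberg threshold was 0.05, and SEs were computed from the fold change and the F statistic. A second fit used the summed mitochondrial mRNA counts as library size, without TMM. Alternatives were DESeq2 1.42.0, limma 3.58.1 on log2 of the deposited FPKM plus 1 or 0.1, other scalings and filters, offsets from a loess curve against GC content (span 0.5), a replicate block, and libraries left out. The models were tested on simulated data. Copies were aligned with blastn 2.17.0. No pair of replicates agreed within sampling noise. Mitochondrial genes were all named. From each list of nuclear genes, the 3 called members with the largest change in each comparison were named, and values are given for the comparisons with WT. The members and lists were chosen with earlier results of these data known.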

Additional observations from a re-analysis of the deposited data

Results flagged for a closer look

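In 150 groups of 4 libraries, 6 held a library far from the other 3 of its genotype, and chance alone sets apart about 1 in 20 groups. DMD-Null 4 accounted for 3 of these. Its Spearman's rho between GC content and deviation was 0.444, against -0.584 to -0.436 in DMD-Null 1 to 3. Its mt-Atp8 counts were 15.2% of those of mt-Atp6, against 23.8% to 25.4%, and its ATP synthase mRNAs took 7.78% of mitochondrial mRNA counts, against 8.27% to 8.34%. The 12S rRNA mt-Rnr1 stood at 787 CPM in mdx 2, against 922 to 947 CPM in the other mdx libraries. The valine tRNA mt-Tv stood at 2.10 CPM in WT 2, against 0.721 to 0.846 CPM in the other WT libraries. The threonine tRNA mt-Tt stood at 0.532 CPM in DMD-Null 3, against 0.322 to 0.342 CPM in the other DMD-Null libraries.

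The glycine tRNA mt-Tg moved in opposite directions from the WT mean of 0.717 CPM, by -0.592 CPM in DMD-Null and 1.14 CPM in mdx. The direct comparison of DMD-Null with mdx had an unadjusted p of 0.00046 and an edgeR adjusted p of 1, and the cause was not tested.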

How the results depend on the processing

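Mitochondrial genes called numbered 19 in DMD-Null against WT and 16 in mdx against WT. With library totals alone there were 9 and 9, with GC-corrected offsets 34 and 32, and with limma at either pseudocount 8 and 9. Without WT 1 and WT 3, and also without DMD-Null 4 as well, there were 33 and 34. With only the 8 libraries compared there were 11 in DMD-Null. Shares over all genes tested are given above for library totals, GC-corrected offsets and the fits without WT 1 and WT 3. They are not given for limma, DESeq2, the 8 libraries, the replicate block or the fits that also left out DMD-Null 4. Of the fits without 1 library, they are given only for that without WT 2, relative to the mRNA total. Counts without such shares show only how the calls move. DESeq2 and the 8 libraries each called 1 gene between DMD-Null and mdx. Relative to the mRNA total, that comparison had 1 call with 8 libraries, without WT 1 and WT 3, and without these and DMD-Null 4. The last of these fits, and those leaving out nuclear copies or genes with a copy, were chosen after seeing the data. Leaving out 1 library at a time gave 13 to 23, 12 to 23 and 0 to 0 calls in DMD-Null against WT, mdx against WT and DMD-Null against mdx. Relative to the mRNA total it gave 13 to 20, 11 to 16 and 0 to 0. The difference in mitochondrial share ran from -1.89 to 2.87, -1.51 to 3.26 and -1.19 to 0.433 percentage points, and without WT 1 and WT 3 it was -5.16 and -4.78 against WT. The causes were not tested.

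With a replicate block, 12, 10 and 0 genes were called library-wide, and 13, 11 and 0 relative to the mRNA total. Same-numbered libraries did not deviate together (correlations of -0.587 to 0.217), which gave no sign that the numbers pair the samples. With few libraries per genotype and the split within WT, a weak pairing could go unseen. Of the genes named as passed with all 12 libraries, none changed the sign of its log2 fold change under any setting run. Counts of most tRNAs were low, down to 2 reads in a library for mt-Tg, which limits their precision.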
